A study of Mus musculus with 9 samples.

Results

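Fatty acid uptake and beta-oxidation was described here as a list of 39 genes, ordered by the step at which their products act, from the capture of fatty acids outside the cell to the last cleavage of the acyl chain in the mitochondrion, with 2 peroxisomal enzymes at the end. A gene belonged to the list when its symbol in the platform's probe-gene table was exactly that of a member, and only probe sets naming a single gene were used. Of the 39 genes, 37 were measured, out of 18193 genes measured in all. Acsl1 had no probe set under its symbol in that table and Cpt1b shared its probe set with other genes, so neither was analysed here. Where a gene had several probe sets, the one with the highest mean over the 9 arrays stood for it, and the others are given where they differ.

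The study profiled right ventricular myocardium of male C57BL6J mice, 6 to 8 weeks old, on Affymetrix expression arrays. For 5 arrays the pulmonary artery of the mice had been banded, which raises the load on the right ventricle. For 4 arrays the mice had a sham operation. Both groups had thus undergone surgery and neither carried an engineered allele. The design text gives the number of mice as 5 without saying whether it covers each group, and 4 sham arrays were analysed. The time between surgery and tissue collection and the tightness of the band are not stated in the labels or the design text. The labels also do not say that each array came from its own animal, so the p-values reflect only the spread among these arrays.

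Fatty acids are the main fuel of the adult heart. They are freed from lipoproteins by lipoprotein lipase or from stored fat by lipases, cross the cell membrane with the help of CD36 and fatty acid transport proteins, are carried in the cytosol by fatty acid binding proteins and are activated to acyl-CoA by long-chain acyl-CoA synthetases. Carnitine palmitoyltransferases move the acyl group into the mitochondrion, a step that malonyl-CoA inhibits, and each turn of beta-oxidation then consists of a dehydrogenation, a hydration, another oxidation and a thiolysis that releases acetyl-CoA. In the heart many of these genes are known targets of the nuclear receptor PPARalpha, of the oestrogen-related receptors and of their coactivator PGC-1alpha.

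Most of the pathway was lower in the banded ventricles. Of the 37 measured members, 31 fell (83.8%), 3 rose (8.11%; Fabp4, Acsl4 and Acsl5) and 3 did not pass the test (Acsl3, Cpt1a and Hsd17b4). Among all genes 38.4% changed, 20.0% fell and 18.4% rose by the same test, limma with Benjamini-Hochberg adjustment over the 18193 genes and a threshold of 0.05. The median difference over the members was -1.27 on the log2 scale, beside 0 over all genes. In 24 members the fall was 1 log2 unit or more, and in 6 it was 2 log2 units or more on unrounded values, with Acaa2 just short of that. Every banding array lay below every sham array in the 31 members that fell, an arrangement found in 19.3% of all genes, while Acsl4 alone had every banding array above every sham array, as 17.4% of all genes did. With so few arrays a call and such an arrangement often go together, so the arrangement adds no separate support. Of all genes, 3633 fell and 3520 had every banding array below every sham array.

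The share of all genes includes many that the heart hardly expresses. Among the 11013 genes whose mean was above a dim level of 4.198 in at least 1 group, 2 log2 units above the lowest value in the table, 32.2% fell, 29.8% rose, 30.9% had every banding array below every sham array, and their median difference was -0.01. All 37 members passed that level in at least 1 group and 36 passed it in both; Ucp3 was dim in the banding group. Among the 702 genes with a sham mean of 12 or more, a level chosen after the values were seen, 56.4% fell, beside 19 of the 20 members that bright. Falls were therefore common among genes bright in the sham group. Choosing genes by their sham mean favours falls, because genes bright only in banding are left out. The share among the members that bright carries the same limit.

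**Figure D1:**
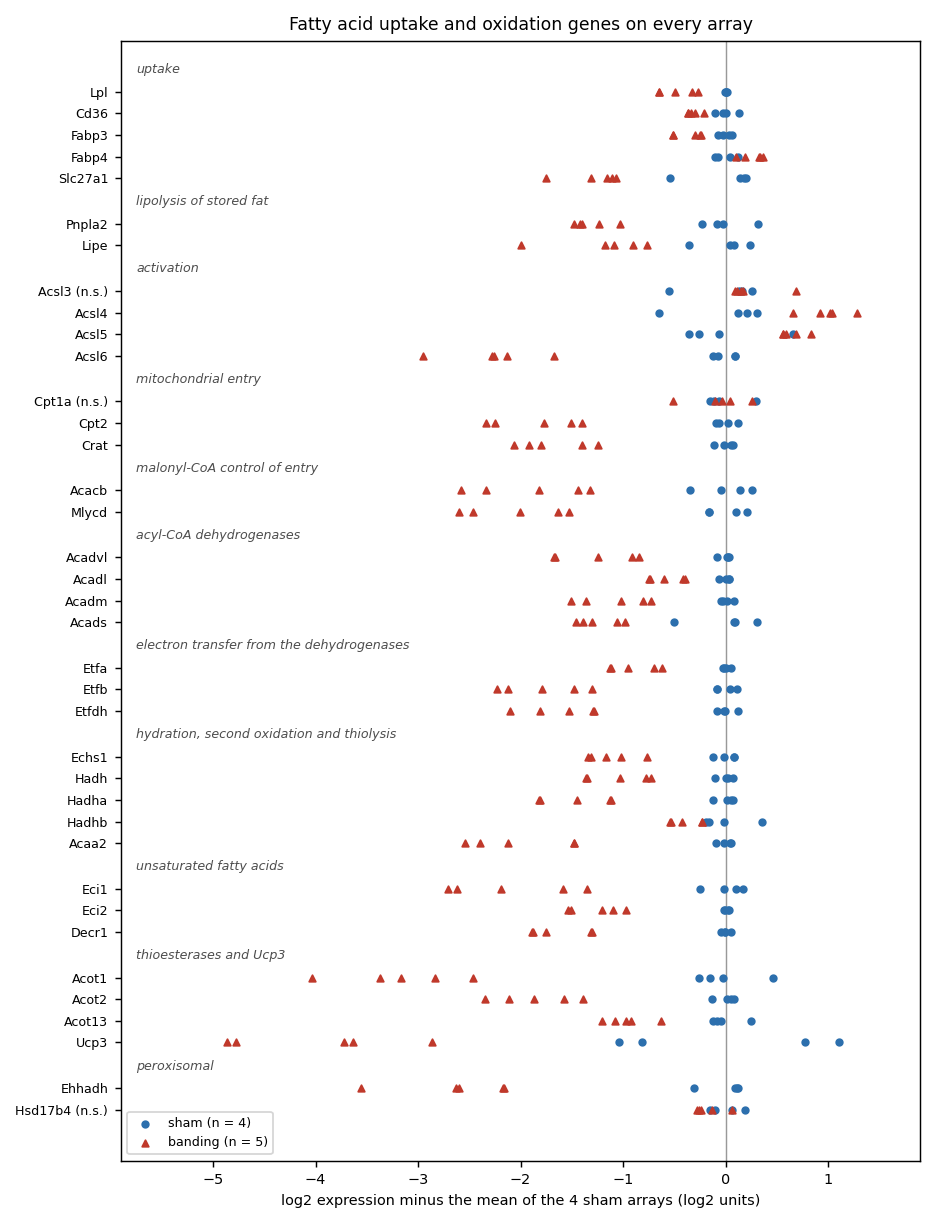
Each row is 1 of the 37 measured members, grouped by step; circles are the 4 sham arrays and triangles the 5 banding arrays, placed by log2 value minus the mean of the sham arrays, and n.s. marks a member that did not pass the test. The triangles lie to the left of all circles in 31 rows; the exceptions are Fabp4, Acsl3, Acsl4, Acsl5, Cpt1a and Hsd17b4.

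The tissue label was checked against 12 ventricular cardiomyocyte genes, among them Myh6, Myl2 and Tnnt2. Their mean per array lay between 14.87 and 15.13 on the banding arrays and between 15.22 and 15.27 on the sham arrays, with 6 of the 12 lower and none higher. All of them had a sham mean of 12 or more, and 56.4% of all genes that bright fell. Markers of other cells moved too, and their counts are to be read beside the genes above the dim level, of which 32.2% fell and 29.8% rose. Of 10 fibroblast genes 9 rose (array means 12.43 to 12.73 in banding, 10.32 to 10.58 in sham), of 10 macrophage genes 9 rose (9.92 to 10.42 against 8.69 to 8.95), and of 10 endothelial genes 5 rose (9.34 to 9.81 against 9.12 to 9.41). All 15 liver genes fell, from array means of 8.77 to 12.82 in the sham group to 2.80 to 4.78 in the banding group, and Alb, serum albumin, reached 14.85 on sham replicate 4. Control probe sets at the 3′ and 5′ ends of Actb differed by 0.83 to 0.89 on the banding arrays and by 0.98 to 1.16 on the sham arrays. The part of these differences in the results on fatty acid genes was not tested, beyond the values given beside them. In bulk tissue, fewer cardiomyocytes and less of a transcript per cardiomyocyte cannot be told apart.

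Liver also burns fatty acids, so the sham array with the most liver transcript was examined for the members. Among the 31 members that fell, sham replicate 4 held the lowest of the 4 sham values in 18 and the highest in 1. Leaving that array out, 31 members fell and the median difference was -1.31. The other 3 sham arrays still had liver marker means of 8.77 to 10.18, above all banding arrays, so this does not remove the liver transcript from the sham group, and its part in the members' differences was not tested.

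At the first step, 4 of the 5 genes that deliver and carry fatty acids fell and 1 rose, with a median difference of -0.36, smaller in size than the median of the whole list. Lpl, the lipase that frees fatty acids from lipoproteins at the vessel wall, read 15.13, 14.91, 15.07, 14.75 and 14.75 on banding replicates 1 to 5 and 15.39, 15.40, 15.41 and 15.40 on sham replicates 1 to 4. The sham arrays were nearly identical and all lay above the banding arrays. The difference was -0.48 ± 0.09 (SE; adjusted p = 0.00349), 1.39-fold lower. Cd36, the main fatty acid translocase of heart muscle, read 14.27, 14.20, 14.36, 14.20 and 14.23 in banding and 14.70, 14.57, 14.47 and 14.54 in sham, a fall by 1.25-fold (-0.32 ± 0.05; adjusted p = 0.00206). Its groups did not overlap, although their nearest arrays were close.

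Slc27a1, the fatty acid transport protein FATP1, fell more than the other uptake genes on the probe sets that stand for them. Dimmer probe sets gave -1.83 for Slc27a1, and -0.57 and -1.66 for Cd36. The log2 values of Slc27a1 were 7.58, 7.54, 7.49, 6.90 and 7.34 on the banding arrays and 8.83, 8.79, 8.85 and 8.11 on the sham arrays. Sham replicate 4 stood below the other sham arrays and still above all banding arrays. The difference was -1.28 ± 0.21 (adjusted p = 0.00184), 2.42-fold lower, and without sham replicate 4 it was -1.46.

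The cytosolic carriers moved in opposite directions. Fabp3, the carrier of heart and skeletal muscle, read 15.09, 15.04, 15.10, 14.83 and 14.83 in banding against 15.31, 15.27, 15.40 and 15.37 in sham, 1.28-fold lower (-0.36 ± 0.07; adjusted p = 0.00549; -0.51, adjusted p = 0.0612, with all its probe sets averaged). Fabp4, the carrier of adipocytes, capillary endothelium and macrophages, read 14.86, 15, 15.03, 15.01 and 14.77 in banding against 14.71, 14.60, 14.79 and 14.57 in sham. Banding replicate 5 lay just below the highest sham array, so the groups overlapped. The rise was 1.20-fold (0.27 ± 0.07; adjusted p = 0.0213), and it did not pass the test without banding replicate 2, banding replicate 4, sham replicate 2 or sham replicate 4 (adjusted p up to 0.0624). Fabp4 has other probe sets, with differences of 0.28, -0.40 and -0.80, so its direction depended on the probe set, and with each array centred on its median over all genes the rise was 0.14 (adjusted p = 0.198). Endothelial and macrophage markers, given above, were higher in banding; the adipocyte marker mean was 3.40 to 5.30 in banding and 4.63 to 5.27 in sham, with 1 of 6 measured genes lower, none higher and Retn, Cidec and Lep dim in both groups. Adipoq, the adipocyte hormone adiponectin, read 7.69, 6.87, 4.42, 3.39 and 6.82 in banding and 3.97, 6.97, 3.98 and 4.65 in sham, overlapping throughout. The part of these cells in the Fabp4 values was not tested.

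Both lipases of stored fat fell. Pnpla2, adipose triglyceride lipase, which takes the first fatty acid from a triglyceride, read 10.16, 9.79, 9.95, 9.71 and 9.77 in banding and 11.11, 10.96, 11.51 and 11.16 in sham. The groups were well separated, and the difference was -1.31 ± 0.13 (adjusted p = 0.000229), 2.48-fold lower. Its probe set has a name ending in _a_at, for probes that may match several transcripts of a gene; the remaining Pnpla2 probe set was near the floor of the table in both groups (mean 2.24 in each), so it gives no value of the change. Lipe, hormone-sensitive lipase, read 5.91, 5.59, 5.78, 5.50 and 4.68 in banding and 6.92, 6.72, 6.76 and 6.32 in sham, 2.28-fold lower (-1.19 ± 0.26; adjusted p = 0.00811). Banding replicate 5 was the lowest of all Lipe values.

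At the activation step, too, the members parted. Of the 4 long-chain acyl-CoA synthetases measured, Acsl6 fell, Acsl4 and Acsl5 rose, and Acsl3 did not pass the test. The median over these genes was 0.45. Acsl1 was not measured, so neither the counts nor the median describe the step as a whole. Acsl6, which is best known from brain and is also present in muscle, read 7.05, 6.59, 6.46, 5.77 and 6.44 in banding and 8.65, 8.81, 8.81 and 8.60 in sham. No banding array came near the sham arrays, and the difference was -2.25 ± 0.23 (adjusted p = 0.000239), 4.76-fold lower. A second, much dimmer Acsl6 probe set gave -0.63 and did not pass (adjusted p over probe sets 0.0817).

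Acsl4, the isoform that prefers arachidonic acid, read 9.30, 9.56, 9.66, 9.68 and 9.92 in banding and 8.85, 8.76, 7.99 and 8.95 in sham. All banding arrays lay above all sham arrays, and sham replicate 3 was the lowest of the 9. The rise was 1.98-fold (0.99 ± 0.22; adjusted p = 0.00807), with 0.18 (not passed; adjusted p over probe sets 0.0632) and 0.70 for its other probe sets. Acsl5, an isoform of the mitochondrial outer membrane and endoplasmic reticulum, read 9.62, 9.89, 9.75, 9.62 and 9.65 in banding and 8.70, 8.80, 9.0 and 9.72 in sham. Sham replicate 4, the array richest in liver transcript, lay inside the banding range and apart from the other sham arrays. The rise was 1.57-fold (0.65 ± 0.21; adjusted p = 0.0394); without sham replicate 4 it was 0.87 (adjusted p = 0.000698), and leaving out any other single array it did not pass the test (adjusted p up to 0.105). Acsl3 read 6.53, 7.11, 6.51, 6.57 and 6.59 in banding and 6.68, 5.87, 6.55 and 6.58 in sham, a difference of 0.24 ± 0.20 (adjusted p = 0.439), with banding replicate 2 above and sham replicate 2 below all other arrays.

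**Figure D2:**
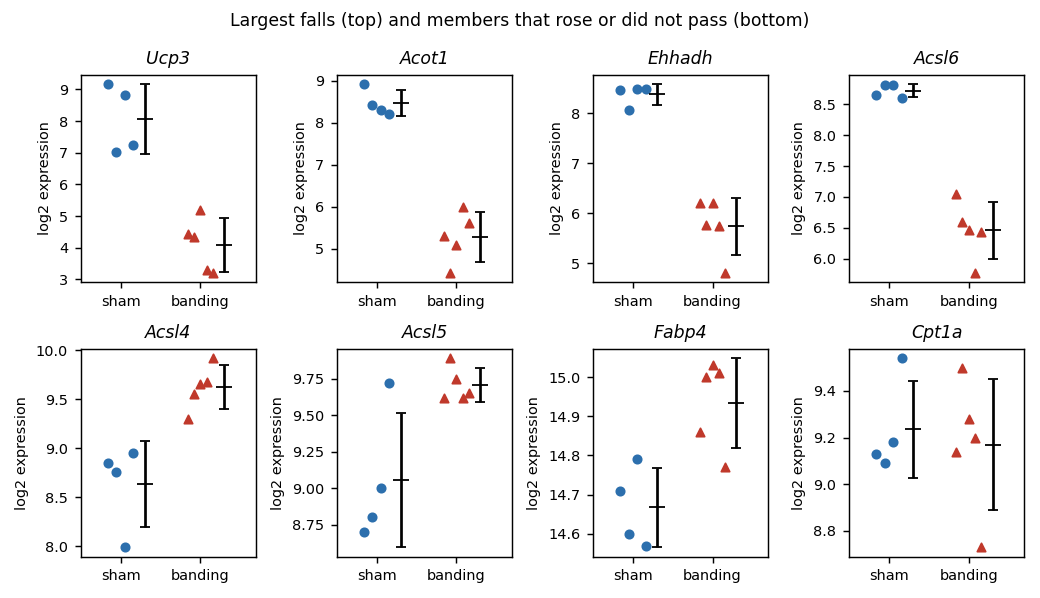
Log2 value of 8 members on each of the 4 sham arrays (circles) and 5 banding arrays (triangles), with the group mean and SD beside the points; the vertical axes differ between panels and do not start at 0. Ucp3, Acot1, Ehhadh and Acsl6 have wide gaps between the groups, Acsl4 is higher on every banding array, and the groups of Acsl5, Fabp4 and Cpt1a overlap.

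Of 3 genes measured at the entry into the mitochondrion 2 fell, and Cpt1a did not pass the test. Cpt1b was not among those measured. Cpt2, carnitine palmitoyltransferase of the inner membrane, which rebuilds acyl-CoA in the matrix, read 11.12, 10.86, 11.23, 10.38 and 10.29 in banding and 12.75, 12.57, 12.65 and 12.54 in sham. The sham arrays were tight and the lowest of them stood well above the highest banding array. The difference was -1.86 ± 0.21 (adjusted p = 0.000377), 3.62-fold lower. Crat, carnitine acetyltransferase, which buffers acetyl-CoA as acetylcarnitine, fell 3.21-fold (-1.68 ± 0.17; adjusted p = 0.000250), from 11.83 ± 0.08 (SD, n = 4) in sham to 10.14 ± 0.35 (SD, n = 5) in banding.

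Cpt1a, the isoform of carnitine palmitoyltransferase that predominates in liver and in the fetal heart, read 9.14, 9.50, 9.28, 9.20 and 8.73 in banding and 9.13, 9.09, 9.18 and 9.54 in sham. The groups overlapped, and sham replicate 4 was the highest of the 9. The difference was -0.06 ± 0.17 (adjusted p = 0.897), 0.04 without sham replicate 4. Its other probe sets above the dim level gave 0.48 (adjusted p over probe sets 0.0532) and 0.46 (0.0309), so the direction of Cpt1a was not settled by these arrays.

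The enzymes that make and remove malonyl-CoA, the inhibitor of entry, fell together. Acacb, the acetyl-CoA carboxylase of the mitochondrial surface, which makes it, read 9.71, 9.21, 9.59, 8.69 and 8.45 in banding and 11.29, 10.98, 11.17 and 10.68 in sham (-1.90 ± 0.29; adjusted p = 0.00151; 3.73-fold lower). Mlycd, malonyl-CoA decarboxylase, which removes it, read 7.88, 7.40, 7.77, 6.95 and 6.81 in banding and 9.62, 9.25, 9.51 and 9.25 in sham (-2.05 ± 0.25; adjusted p = 0.000486; 4.14-fold lower). On the banding arrays both genes were highest on replicates 1 and 3 and lowest on replicates 4 and 5.

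All 4 acyl-CoA dehydrogenases, which carry out the first oxidation on chains of decreasing length, fell. Acadvl, the very-long-chain enzyme, read 12.96, 12.56, 12.90, 12.14 and 12.15 in banding and 13.82, 13.83, 13.84 and 13.73 in sham, 2.40-fold lower (-1.27 ± 0.19; adjusted p = 0.00146). Acadl, the long-chain enzyme, read 14.02, 13.84, 14.04, 13.69 and 13.70 in banding and 14.47, 14.44, 14.38 and 14.47 in sham, 1.50-fold lower (-0.58 ± 0.08; adjusted p = 0.00112). Acadm, the medium-chain enzyme and a standard PPARalpha target, fell 2.13-fold (-1.09 ± 0.17; adjusted p = 0.00155), from 14.25 ± 0.06 (SD, n = 4) to 13.16 ± 0.34 (SD, n = 5). Acads, the short-chain enzyme, fell 2.36-fold (-1.24 ± 0.18; adjusted p = 0.00113), from 10.76 ± 0.35 to 9.52 ± 0.21. In each of the 4 the lowest sham array exceeded the highest banding array.

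The electrons from these dehydrogenases pass to the electron transfer flavoprotein, made of Etfa and Etfb, and on to ubiquinone through its dehydrogenase Etfdh. Etfa read 13.82, 13.49, 13.74, 13.31 and 13.32 in banding and 14.42, 14.49, 14.44 and 14.41 in sham, 1.87-fold lower (-0.90 ± 0.12; adjusted p = 0.000663). Etfb read 12.09, 11.60, 11.91, 11.16 and 11.27 in banding and 13.31, 13.43, 13.50 and 13.31 in sham, 3.43-fold lower (-1.78 ± 0.20; adjusted p = 0.000350). The banding arrays kept the same order for both subunits, with replicates 1 and 3 highest and replicate 4 lowest. Etfdh fell 3.04-fold (-1.60 ± 0.18; adjusted p = 0.000325), from 13.80 ± 0.08 to 12.20 ± 0.35.

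The hydration, the oxidation of the hydroxyacyl group and the thiolysis were all represented by genes that fell. Acaa2, the mitochondrial thiolase, fell most among them, with 12.14, 11.50, 12.14, 11.08 and 11.22 in banding and 13.60, 13.67, 13.66 and 13.53 in sham. Its difference was -2.0 ± 0.25 (adjusted p = 0.000543), 4.0-fold lower. Echs1, the short-chain enoyl-CoA hydratase, fell 2.18-fold (-1.13 ± 0.12; adjusted p = 0.000304), from 13.31 ± 0.10 to 12.19 ± 0.23, and Hadh, the short-chain hydroxyacyl-CoA dehydrogenase, fell 2.06-fold (-1.05 ± 0.15; adjusted p = 0.00109), from 15.26 ± 0.07 to 14.21 ± 0.30.

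Hadha and Hadhb encode the alpha and beta subunits of the mitochondrial trifunctional protein, which acts on long chains. The genes lie head to head on chromosome 5, with their annotated starts at positions 273 bases apart, so the 250 bases upstream of either overlap. The shared stretch of 228 bases is shown because a single short sequence lies upstream of both genes. Their measured changes differed on the probe sets that stand for them, and the size for Hadhb depended on the probe set. It is taken from RefSeq on build GRCm38.p6 at chr5:30155003-30155230, plus strand, on which Hadhb is read; none of the motifs named below was found in it.
Hadha and Hadhb, shared upstream stretch: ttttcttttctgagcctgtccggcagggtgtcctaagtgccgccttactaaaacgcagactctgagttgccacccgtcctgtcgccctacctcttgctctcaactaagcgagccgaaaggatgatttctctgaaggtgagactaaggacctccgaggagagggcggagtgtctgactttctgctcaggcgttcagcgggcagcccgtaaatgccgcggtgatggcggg

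Hadha read 12.55, 12.22, 12.54, 11.86 and 11.85 in banding and 13.74, 13.72, 13.68 and 13.55 in sham, 2.76-fold lower (-1.47 ± 0.17; adjusted p = 0.000443). Hadhb read 14.30, 14.40, 14.60, 14.29 and 14.60 in banding and 15.18, 14.81, 14.67 and 14.64 in sham, 1.31-fold lower (-0.39 ± 0.13; adjusted p = 0.0499). The Hadhb groups were separated by less than their own spread, and its call was lost when any array other than sham replicate 4 was left out (adjusted p up to 0.107), and under quantile normalization (0.0934). Its other probe sets gave -0.99 and -1.11, nearer to the difference of Hadha.

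Enzymes that prepare unsaturated chains for the cycle fell by 1.27 to 2.09 log2 units. Eci1, an enoyl-CoA isomerase that shifts the double bond, read 11.37, 10.53, 11.13, 10.01 and 10.10 in banding and 12.82, 12.70, 12.89 and 12.47 in sham, 4.27-fold lower (-2.09 ± 0.31; adjusted p = 0.00119). Eci2, its relative found in both mitochondria and peroxisomes, fell 2.41-fold (-1.27 ± 0.12; adjusted p = 0.000199), from 12.04 ± 0.02 to 10.77 ± 0.25. Decr1, the mitochondrial dienoyl-CoA reductase, read 12.07, 11.62, 12.06, 11.48 and 11.49 in banding and 13.32, 13.36, 13.42 and 13.36 in sham, 3.08-fold lower (-1.62 ± 0.15; adjusted p = 0.000153). Banding replicates 1 and 3 were again the highest of their group for Eci1, Eci2 and Decr1.

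The acyl-CoA thioesterases and Ucp3 held the largest differences of the list, with a median of -2.52 over the 4 genes. Acot1, the cytosolic thioesterase that releases free fatty acid from acyl-CoA, read 5.29, 4.42, 5.09, 6.00 and 5.62 in banding and 8.92, 8.43, 8.31 and 8.20 in sham. The gap between the groups exceeded the range within either, and the difference was -3.18 ± 0.32 (adjusted p = 0.000229), 9.04-fold lower. Acot2, its mitochondrial relative, fell 3.63-fold (-1.86 ± 0.19; adjusted p = 0.000262), from 10.58 ± 0.10 to 8.72 ± 0.39, and Acot13, another mitochondrial thioesterase, fell 1.95-fold (-0.96 ± 0.13; adjusted p = 0.000744), from 13.54 ± 0.17 to 12.58 ± 0.22. Acot1 and Acot2 are close paralogs, so probes for either may also take up transcript of the other.

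Ucp3, a mitochondrial carrier of muscle that is induced when fatty acids are plentiful, read 4.42, 4.34, 5.20, 3.28 and 3.20 in banding and 9.17, 7.02, 8.83 and 7.24 in sham. It fell furthest of the measured members and also varied most among the sham arrays. The fitted difference was -3.97 ± 0.62 (adjusted p = 0.00162). The banding mean was dim, so the fold is given as a bound, at least 12-fold lower, with each banding array taken at the dim level or at its own value where that was higher. A second Ucp3 probe set gave -4.69. The brown fat gene Ucp1 was near the floor, and of 4 brown adipocyte markers only Cox7a1, which cardiac muscle also expresses, was lower.

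The upstream sequences of Ucp3, Acsl6 and Acadm are shown as examples of members that fell and carry AGGTCA, the core motif of nuclear receptors. The motif was sought in the 250 bases before each annotated start. Acadvl, Cd36 and Echs1 also fell and carry it, and are not shown. Cpt1a carries it as well but did not pass the test for a change. Both strands were searched, and RefSeq windows on build GRCm38.p6 were found for 30 of the 37 measured members, 35 windows in all. The motif was present in 20.0% of the member windows (7 of 35; Acadm, Acadvl, Acsl6, Cd36, Cpt1a, Echs1 and Ucp3) and in 14.0% of all 32851 windows of the same length. A longer form, TCAAGGTCA, which contains the core and is known from oestrogen-related receptors, was in 0.387% of all windows and in 1 member window, that of Acsl6. The spaced repeat AGGTCANAGGTCA, known from PPAR sites, was in 0.0335% of all windows and in none of the member windows. A match describes the letters only. Capitals mark the motif or its reverse complement, TGACCT, and every sequence is written in the direction of its gene. Ucp3 lies at chr7:100472741-100472990 on the plus strand, with matches starting 149 and 44 bases before the start. Acsl6 lies at chr11:54303574-54303823 on the plus strand, upstream of the first of 3 annotated starts, with the longer form at 167 bases. The windows before its other starts held no match. Acadm lies at chr3:153944644-153944893 on the minus strand, with its match at the far end of the window.
Ucp3: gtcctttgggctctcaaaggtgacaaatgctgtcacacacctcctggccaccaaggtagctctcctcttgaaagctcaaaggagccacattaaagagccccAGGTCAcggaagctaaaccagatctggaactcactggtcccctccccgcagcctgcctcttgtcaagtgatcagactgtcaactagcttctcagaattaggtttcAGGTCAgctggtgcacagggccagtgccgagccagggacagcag
Acsl6: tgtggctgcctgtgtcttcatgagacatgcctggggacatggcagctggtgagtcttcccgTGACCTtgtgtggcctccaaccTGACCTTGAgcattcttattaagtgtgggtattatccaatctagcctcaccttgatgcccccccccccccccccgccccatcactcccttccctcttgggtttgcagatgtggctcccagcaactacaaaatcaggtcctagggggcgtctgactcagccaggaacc
Acadm: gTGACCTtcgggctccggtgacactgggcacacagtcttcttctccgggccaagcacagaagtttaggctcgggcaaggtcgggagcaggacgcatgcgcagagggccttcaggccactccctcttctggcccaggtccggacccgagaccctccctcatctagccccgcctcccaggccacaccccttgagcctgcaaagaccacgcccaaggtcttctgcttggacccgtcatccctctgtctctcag

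The peroxisomal members diverged. Ehhadh, the bifunctional enzyme of the classical, PPARalpha-inducible peroxisomal cycle, read 6.20, 5.77, 6.21, 5.74 and 4.81 in banding and 8.46, 8.06, 8.49 and 8.48 in sham, 6.18-fold lower (-2.63 ± 0.29; adjusted p = 0.000341). Sham replicates 1, 3 and 4 were close together and sham replicate 2 was lower. Ehhadh is also abundant in liver, and the part of the liver transcript of the sham arrays in its values was not tested. Hsd17b4, the bifunctional enzyme of the branched-chain and very-long-chain pathway, read 11.00, 11.13, 11.32, 11.02 and 10.98 in banding and 11.45, 11.32, 11.16 and 11.11 in sham. Its groups overlapped and the difference of -0.17 ± 0.10 did not pass the test (adjusted p = 0.224), whereas the other, slightly dimmer Hsd17b4 probe set gave -0.82 (adjusted p over probe sets 0.000490).

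Probe sets of the same gene often gave different sizes of change. The 37 members had 70 probe sets between them, and 14 members had 1. Of the 16 members with 2 or more probe sets above the dim level, 14 had all of these on the same side of 0, the exceptions being Fabp4 and Cpt1a. Among the 12 members that fell and had 2 or more such probe sets, the second-brightest gave a more negative difference than the brightest in 9. Lpl went from -0.48 to -1.0, Cd36 from -0.32 to -0.57 with a further probe set at -1.66, Fabp3 from -0.36 to -0.66 on a much dimmer probe set, Slc27a1 from -1.28 to -1.83, Hadh from -1.05 to -1.60, Acaa2 from -2.0 to -2.25 and Decr1 from -1.62 to -2.63. The reverse was seen for Acsl6, for Crat, from -1.68 to -1.18, and for Acot2, from -1.86 to -1.75. The small differences of the brightest uptake genes therefore depend on the probe set that stands for them.

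**Figure D3:**
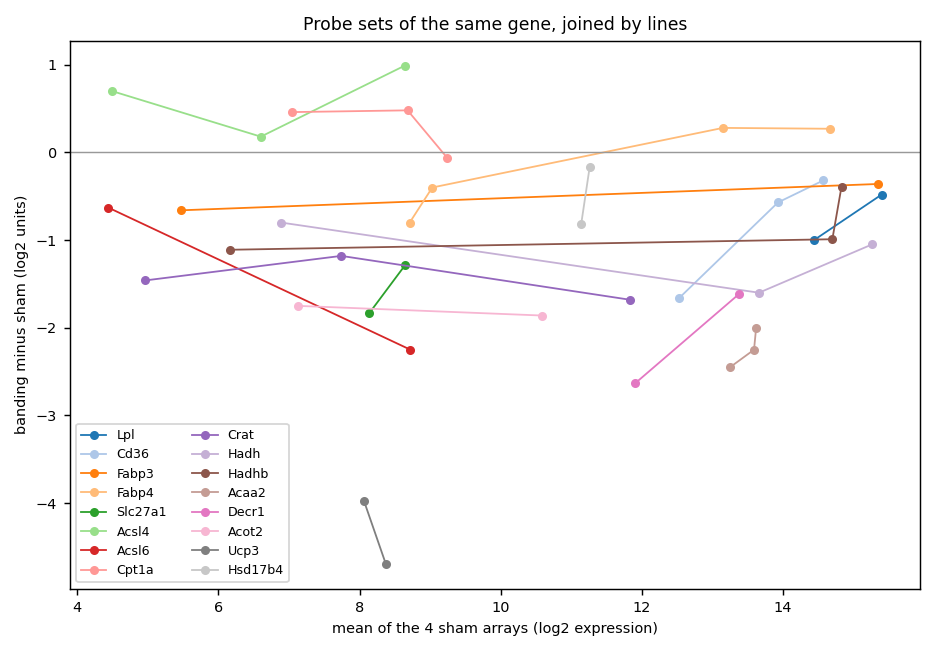
Banding minus sham difference (log2 units, vertical) of every probe set above the dim level against its sham mean (log2, horizontal), for the 16 members with 2 or more such probe sets; lines join the probe sets of a gene. The probe sets of Cd36, Fabp4, Acsl6 and Decr1 lie more than 1 log2 unit apart.

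Whether members at the same step changed unequally was tested within arrays, on the log2 value of a gene minus that of its partner, by an exact two-sided permutation of the 9 arrays, with Benjamini-Hochberg adjustment over 13 pairs. Of 18 pairs listed, 5 involved Acsl1 or Cpt1b and could not be computed. The smallest p this design allows is 0.00794. The change was unequal in 9 pairs. In each of them the groups did not overlap, which passing this test with so few arrays nearly requires, so it adds no support. How often pairs of other genes change unequally was not examined. Each value rests on the probe sets that stand for its genes, and other probe sets of a gene often gave different sizes. Except in Eci2 with Eci1 and Fabp4 with Fabp3, the gene with the brighter sham mean in these 9 pairs changed less. The part of brightness and of probe set choice in the pair values was not tested.

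Acadl fell less than Acadvl by 0.68 (adjusted p = 0.0172; 0.18, adjusted p = 0.403, with all probe sets of each gene averaged), and Acadm fell less than Acadvl by 0.18 (0.0229), while Acads and Acadvl differed by 0.03 (0.865). The averaged value takes in an Acadl probe set that was dim in both groups (mean 2.48 in banding and 4.08 in sham). Etfb fell more than Etfa, by -0.88 (0.0172), although their products form a dimer. Hadhb fell less than Hadha by 1.08 (0.0229), and by 0.47 (0.0146) with probe sets whose names end in _x_at, _s_at or _a_at left out. Eci2 fell less than Eci1 by 0.83 (0.0229).

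Acot13 fell less than Acot1 by 2.21 (0.0172), and the corresponding value for Acot2 was 1.32, which did not pass (0.0516) but did under quantile normalization (1.40; 0.0413). Ehhadh and Hsd17b4 differed by -2.45 (0.0172). Cd36 fell less than Slc27a1 by 0.96 (0.0172), and Fabp4 and Fabp3 differed by 0.62 (0.0172), a value that became -0.04 without the probe sets of those name endings. The lipases Lipe and Pnpla2 differed by 0.12 (0.748), and Mlycd and Acacb, which act on malonyl-CoA in opposite directions, by -0.15 (0.0750). With all probe sets averaged the last value was -1.10 and passed (0.0172). That average takes in an Acacb probe set that was near the floor in both groups and gives no value of the change. The averaged value therefore does not show that Mlycd and Acacb changed unequally.

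**Figure D4:**
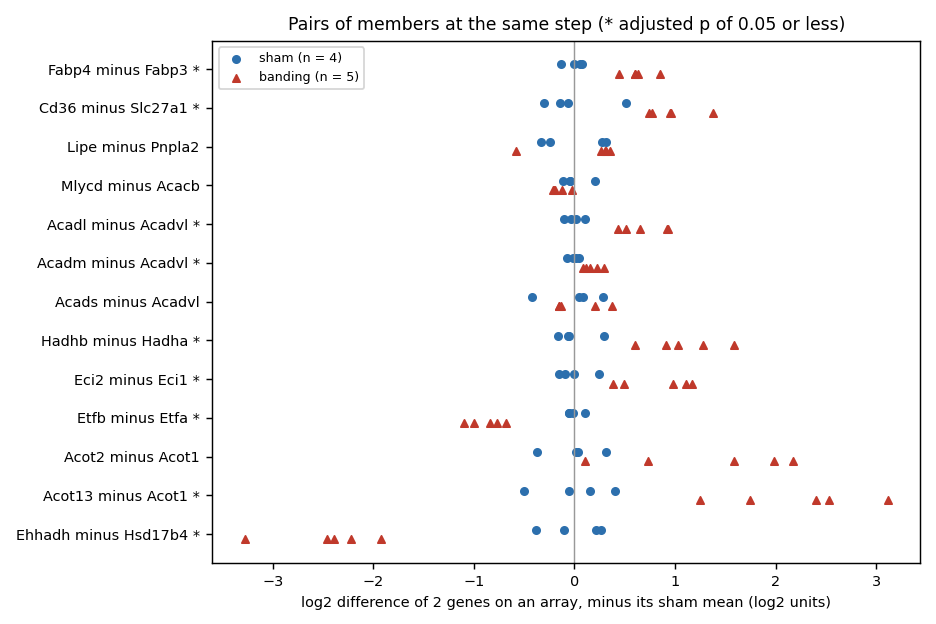
For each of the 13 pairs, the log2 value of a gene minus that of its partner on each array, less the sham mean of that quantity (log2 units); circles are sham arrays, triangles banding arrays, and an asterisk marks an adjusted p of 0.05 or less. The banding arrays lie wholly to 1 side of the sham arrays in the 9 marked pairs.

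The banding arrays differed in how far the members had fallen. Over the 31 members that fell, the median of the array's value minus the sham mean was -1.07 on banding replicate 1, -1.40 on replicate 2, -1.15 on replicate 3, -1.75 on replicate 4 and -1.81 on replicate 5. Replicate 1 held the highest banding value in 20 of these members and replicate 3 in 10, whereas replicate 4 held the lowest in 19 and replicate 5 in 10. The same median over the 11013 genes above the dim level, which were not chosen by direction, stayed between -0.03 and -0.0031 on these arrays. The 31 members were chosen for falling, so their negative medians follow from that choice. The order of the banding arrays over other genes that fell was not examined. The cardiomyocyte marker mean was 15.13 and 15.05 on replicates 1 and 3 and at most 14.95 on the others, and its part in this order was not tested.

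Of 72 other genes of fatty acid handling, 68 were measured. In this list 49 fell, 3 rose and 16 did not pass the test, with a median difference of -0.86. Of the 68, 6 were dim in both groups. By the same test 20.0% of all genes fell and 18.4% rose. Among genes above the dim level in at least 1 group, 32.2% fell and 29.8% rose. The counts of the separate lists below are to be read beside these shares. Among 14 further uptake and carnitine genes 7 fell and 2 rose, with a median difference of only -0.15. Slc22a5, the carnitine transporter of the cell membrane, fell (-1.72; adjusted p = 0.000484), as did Slc25a20, the carnitine-acylcarnitine carrier of the inner membrane (-1.12; 0.000362). Fabp5, a carrier of endothelium and macrophages, rose by 1.17 (9.64e-05), and Cpt1c, a neuronal relative of the carnitine palmitoyltransferases that is named as 1 of only 3 genes that rose, by 2.55 (0.000562).

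Slc27a2 and Slc27a5, transport proteins of liver, fell too, Slc27a2 by at least 10.3-fold. Slc27a2 read 7.62, 6.92, 5.39 and 10.29 on the sham arrays, and Slc27a5 read 6.16, 5.58, 3.60 and 9.56. Both were highest on sham replicate 4 and lowest on sham replicate 3, as Alb was (12.73, 12.32, 11.45 and 14.85). These genes were singled out after their values were seen.

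Of 15 other mitochondrial acyl-CoA enzymes 13 fell and 1 rose. Mcat, malonyl-CoA acyltransferase of mitochondrial fatty acid synthesis, fell (-1.39; 4.91e-05), as did Acad11, an acyl-CoA dehydrogenase (-1.60; 8.04e-05), whereas Acot9, a mitochondrial thioesterase, rose by 0.79 (0.0123). Of 16 other peroxisomal genes 12 fell and none rose; Abcd3, a peroxisomal membrane transporter, fell (-1.18; 8.46e-05), as did Ech1, a dienoyl-CoA isomerase (-1.94). Acaa1b, a peroxisomal thiolase abundant in liver, was at least 17.8-fold lower, and its sham values of 8.06, 7.78, 6.91 and 10.67 followed those of Alb.

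Of 13 lipid droplet and triglyceride genes 9 fell and none rose. Abhd5, the coactivator of Pnpla2, fell (-0.82; 0.000171), as did Dgat2, which makes triglyceride (-2.74). Of 10 regulators of fatty acid genes 8 fell and none rose. Ppara, which encodes PPARalpha, fell (-1.17 ± 0.30; 0.0166), and so did Ppargc1a, which encodes PGC-1alpha (-1.25 ± 0.29; 0.0108). Rxra, the partner of PPARs (-0.83; 7.11e-05), Esrra, an oestrogen-related receptor (-1.06), and Pdk4, a kinase that restrains glucose oxidation (-1.93), fell as well.

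**Figure D5:**
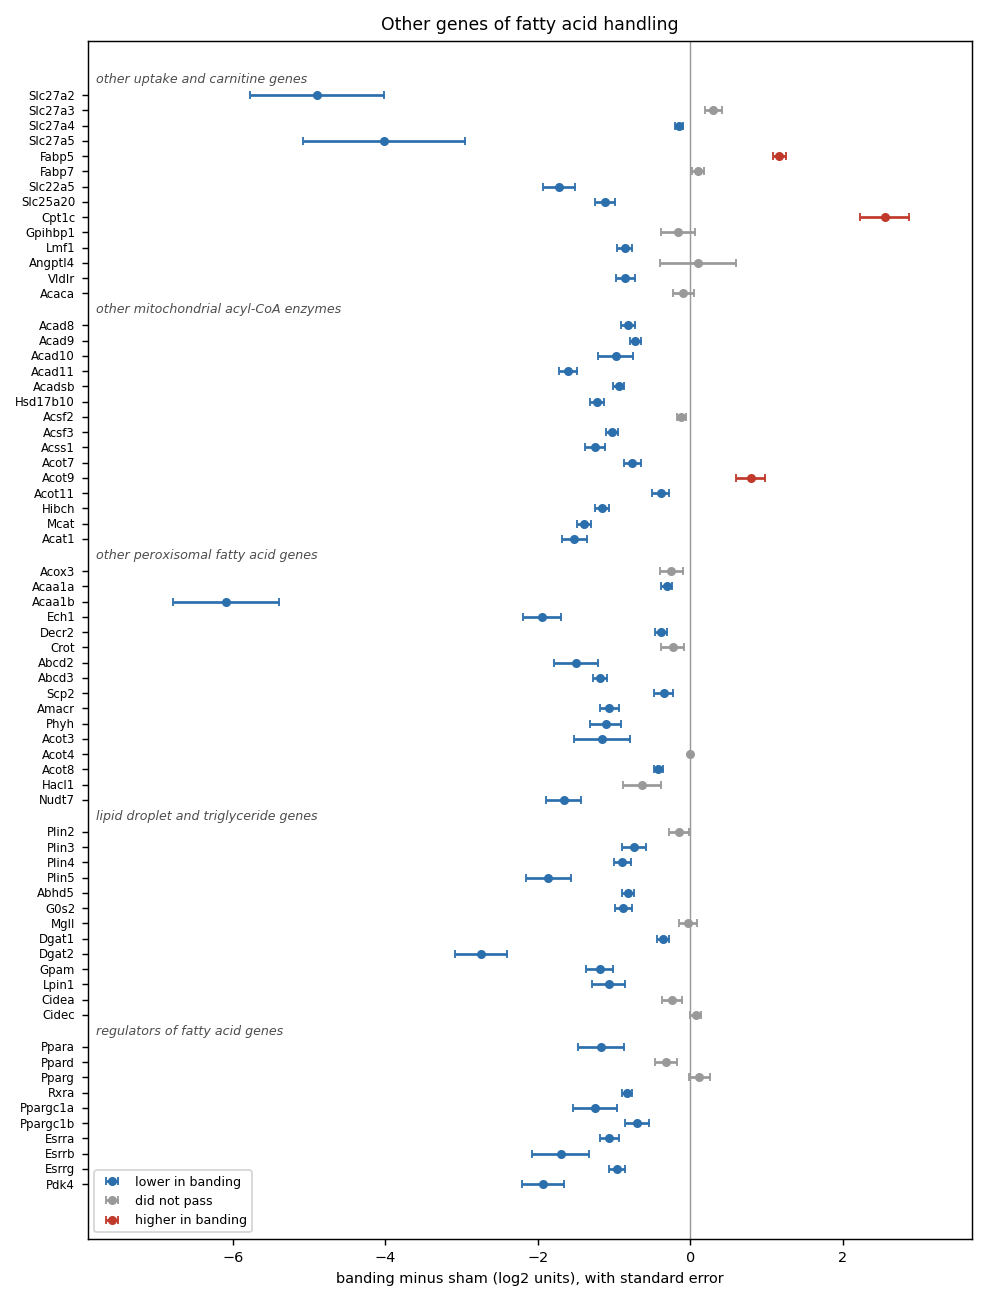
Banding minus sham difference (log2) of the 68 other measured genes of fatty acid handling, by list; points are genes with their standard error, coloured by whether they fell, rose or did not pass the test. In each of the 5 lists at least 7 genes fell, and the 3 genes that rose are Fabp5, Cpt1c and Acot9.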

How the data were processed

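RNA from right ventricular myocardium was hybridised to Affymetrix arrays, 5 from banded and 4 from sham-operated mice, grouped by the labels. The authors deposited 1 normalized log2 value per probe set and array; RMA and GCRMA are named in the submitters' processing notes, with no version, role or order, and the values run from 2.198 to 16.43. Array medians were 3.23 to 3.31, and precision is limited by how few arrays there are. Scan dates and batches: not given in the sources used here.

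Of 45101 probe sets, 64 controls, 9160 without a gene and 932 naming several genes in the platform table were left out. The remaining 34945 gave 18193 genes, each by its probe set with the highest mean over the 9 arrays. Banding and sham were compared on the log2 values with limma 3.58.1 (lmFit, eBayes; R 4.3.3), as a two-sided test, p adjusted by Benjamini-Hochberg across the 18193 genes, threshold 0.05; the fit was tested on simulated data. Pairs of members were compared by an exact permutation test. Other work used Python 3.11.15 and pandas 2.3.3. Folds with a dim group are bounds.

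All members are accounted for. Of the other lists, up to 4 genes with the smallest p are eligible for naming, plus Adipoq, Ucp1, Alb, Ppara and Ppargc1a; Cpt1c, Acot9, Slc27a2, Slc27a5 and Retn, Cidec, Lep and Cox7a1 are named beyond that, after their values were seen. The members and lists were chosen with earlier results of these data known. Alternatives covered probe set choice, leaving out probe sets whose names end in _x_at, _s_at or _a_at (probes that may match other genes or several transcripts of a gene), dim genes, floor, scaling, variance model, replicate block, left-out arrays and a liver covariate.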

Additional observations from a re-analysis of the deposited data

Results flagged for a closer look

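Arrays that stood far from the rest of their group were sought by Dixon's criterion in 96 groups of arrays, made of the 37 members and the marker means and array measures in both groups. Of these, 7 stood apart, where chance gives about 1 in 20. For Slc27a1, sham replicate 4 read 8.11 and the other sham arrays 8.79 to 8.85. For Acsl3, banding replicate 2 read 7.11 against 6.51 to 6.59 on the other banding arrays, and sham replicate 2 read 5.87 against 6.55 to 6.68. For Ehhadh, sham replicate 2 read 8.06 against 8.46 to 8.49. The liver marker mean was 4.78 on banding replicate 5 and 2.80 to 3.12 on the other banding arrays. The endothelial marker mean was 9.34 on banding replicate 5 against 9.74 to 9.81, and 9.41 on sham replicate 3 against 9.12 to 9.16.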

How the results depend on the processing

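Of 984 values recomputed under the alternatives, 873 kept their direction and side of the threshold, 83 no longer passed, 11 newly passed and 17 changed sign. Of the 31 members that fell, 27 passed and fell under every alternative except the liver covariate. With the liver marker mean as a covariate, 964 genes were called, 1 member was lower (Acads) and 0 higher, the median difference was -1.83, and 11 other fatty acid genes were lower and 0 higher; the liver means of the groups do not overlap, so this covariate and the group can hardly be told apart. Leaving out each array in turn gave 6270 to 6701 called genes, 30 to 31 lower and 1 to 2 higher members, medians of -1.33 to -1.18, 7 to 10 unequal pairs, and 45 to 47 lower and 3 to 4 higher other genes. Without sham replicate 4 and banding replicate 5 together, 0 pairs passed, because the smallest adjusted p the remaining arrays gave was 0.0531.

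The replicate numbers did not pair the arrays: same-numbered deviations correlated by -0.0294 to 0.0361. With the replicate block, 5277 genes were called, 29 members were lower and 1 was higher, and the median was -1.18; pairs were not tested there, since 4 sign flips cannot reach the threshold. Without suffixed probe sets (names ending in _x_at, _s_at or _a_at) Mlycd and Eci2, whose single probe sets end in _a_at, had none, leaving 11 pairs. Pnpla2 did not pass there, since its remaining probe set was near the floor in both groups.

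Differences that changed sign were those of Fabp4, -0.18 with the liver covariate, -0.16 with the mean of all probe sets and -0.40 without suffixed probe sets; of Cpt1a, 0.05 with the liver covariate, 0.29 with the mean of all probe sets, 0.05 with the replicate block, 0.05 without banding replicate 5, 0.04 without sham replicate 4, 0.15 without both and 0.48 on the second-brightest probe set, an alternative chosen after seeing the data; of Lipe minus Pnpla2, -0.04 with the mean and -1.18 without suffixed probe sets; of Acads minus Acadvl, -0.06 without banding replicate 4, -0.01 without banding replicate 5, -0.11 without sham replicate 4 (leaving out single arrays, -0.11 to 0.12) and -0.15 without sham replicate 4 and banding replicate 5; and of Fabp4 minus Fabp3, -0.04 without suffixed probe sets. Both alternatives for Lipe minus Pnpla2 use the Pnpla2 probe set that was near the floor in both groups (mean 2.24 in each). The cause of the other changes of sign was not tested. Dim genes, such as Ucp3 in banding, have only bounded folds.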
